A study of Homo sapiens with 6 samples.

Results

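The enzymes described here set 2 control points of glucose use: the 4 PFKFB genes (PFKFB1, PFKFB2, PFKFB3 and PFKFB4), the 4 pyruvate dehydrogenase kinase genes (PDK1, PDK2, PDK3 and PDK4) and the 2 pyruvate dehydrogenase phosphatase genes (PDP1 and PDP2). These 10 genes were chosen by their symbols in the gene column of the count files, out of 44591 genes listed, and each was present once. RNA was sequenced from A2780, a human line derived from ovarian cancer and labelled wild type, in 3 untreated cultures and in 3 given 40 ng/ml of human recombinant CRMP2 (r-CRMP2) in the culture medium. Every culture was labelled 48 h and all were grown in DMEM with serum. CRMP2 (DPYSL2) is a microtubule-associated protein, and the comparison asks which transcripts of A2780 cells differ after exposure to the added protein. All results come from 1 cell line, and the labels do not say whether the untreated cultures received a vehicle.

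PFKFB proteins are bifunctional enzymes that make and remove fructose-2,6-bisphosphate, the strongest known activator of phosphofructokinase in glycolysis, and the balance of kinase and phosphatase activity differs between the isoenzymes. PDKs are mitochondrial kinases that phosphorylate and switch off the pyruvate dehydrogenase (PDH) complex, which turns pyruvate into acetyl-CoA, and PDPs remove that phosphate and switch it on again. In tumor cells, PFKFB3, PFKFB4 and PDK1 are widely studied as genes that hypoxia-inducible factors can induce. The row named PDK1 is pyruvate dehydrogenase kinase 1 on chromosome 2, and not the signaling kinase PDPK1, which often carries the same short name.

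In r-CRMP2-treated cells, 6 of the 10 genes rose (PFKFB3, PFKFB4, PDK1, PDK3, PDK4 and PDP2) and PFKFB2 and PDK2 fell, while PDP1 did not pass the test and PFKFB1 was too weakly expressed to be tested. PFKFB3 and PDK1 had the largest rises, 2.90-fold and 2.76-fold. Here a rise or a fall means passing edgeR's quasi-likelihood test across all genes at an adjusted p under 0.05, and SE is the standard error over replicates. Most genes in these libraries differed, 58.2% by this rule against 8 of the 9 switch enzymes tested. By direction, 28.2% of the 16222 genes tested were higher and 30.1% lower, against 6 and 2 of the 9 members. With the further requirement of a log2 fold change over 1, PFKFB3 and PDK1 remained, against 5.12% of all genes higher, and no member was among the 8.86% lower. The treated and untreated libraries did not overlap for any of the 9 genes, with 6 above and 3 below. The same held for 64.2% of all genes, 30.9% above and 33.3% below. The median log2 fold change was 0.55 over the 9 genes and -0.03 over all genes.

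The libraries held between 21888530 and 25711353 counts. The CPM values below are counts divided by library size and scaled with TMM factors, which were 1.10 to 1.12 in the untreated and 0.878 to 0.922 in the treated libraries. This scaling bears on every fold change: with library size alone the median log2 fold change of all genes was -0.34, with 13.4% of genes higher and 52.1% lower. Of the listed markers of ovarian epithelial cells, 5 of 7 were at 1 CPM or more in every library, led by the keratins KRT8 and KRT18, while CDH1 and WT1 stayed under 1 CPM. The summed level of the epithelial markers was 2544 to 2590 CPM in untreated and 2656 to 2864 CPM in treated libraries, most of it from the 2 keratins. With library size alone the log2 fold change of KRT8 turned from 0.03 to -0.28 and that of KRT18 from 0.20 to -0.11. Of the 5 epithelial markers tested, KRT18 rose and MUC16 (-0.36) fell, against 28.2% and 30.1% of all genes, with a median of 0.03. Of the fibroblast markers 9 of 10 were at 1 CPM or more in every library, all but FAP, with COL1A1 the highest. The sum of the fibroblast markers was 606 to 679 CPM in untreated and 529 to 553 CPM in treated libraries. Most of this sum was COL1A1, which fell, with means of 419 and 316 CPM. Of the 9 fibroblast markers tested, 3 were higher and 3 lower, against 28.2% and 30.1% of all genes. Their median log2 fold change was 0.17, so the sum does not describe the list as a whole. Counts on mitochondrial genome rows made up 6.19% to 6.59% of the untreated and 3.76% to 4.10% of the treated libraries, and the part of these shifts in the results below was not tested. In such bulk RNA, fewer cells with a transcript and less of it per cell cannot be told apart.

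The promoter sequences of the 4 members with the largest rises (PFKFB3, PDK1, PDK4 and PFKFB4), and 1 of PDK2, which fell, are shown because hypoxia-inducible factors bind DNA at short motifs that contain ACGTG or GCGTG. RefSeq windows (GRCh38.p14) of 250 bases before and 50 bases after a transcription start were used for 8 of the 10 genes. These were 13 windows in all, and both letter strings were searched on both strands. No window of PFKFB2 or PDP1 was included in the search, so the promoters of these genes were not tested. Their absence does not show that they have no such windows, and the member shares given after the sequences leave both genes out. The windows below run 5' to 3' on the gene's strand, with the matches in capitals. They comprise every window of the 4 genes that rose most, and of the windows of PDK2 the only one with matches. CACGT and CACGC are the same strings on the opposite strand, and in CACGTG the matches of both strands overlap.
PFKFB3 (chr10:6144671-6144970, plus strand): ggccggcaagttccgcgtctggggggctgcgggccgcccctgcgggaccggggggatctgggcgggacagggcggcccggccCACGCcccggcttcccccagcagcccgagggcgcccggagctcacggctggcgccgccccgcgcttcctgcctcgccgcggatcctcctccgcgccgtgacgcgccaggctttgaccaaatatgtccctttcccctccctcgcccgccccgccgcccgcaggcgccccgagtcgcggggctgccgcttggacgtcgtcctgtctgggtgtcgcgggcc
PFKFB3 (chr10:6202682-6202981, plus strand): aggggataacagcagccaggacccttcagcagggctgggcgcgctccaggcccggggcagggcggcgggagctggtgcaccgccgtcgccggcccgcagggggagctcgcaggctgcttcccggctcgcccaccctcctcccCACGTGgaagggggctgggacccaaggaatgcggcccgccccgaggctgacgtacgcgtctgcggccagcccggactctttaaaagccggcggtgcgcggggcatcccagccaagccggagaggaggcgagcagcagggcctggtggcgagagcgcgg
PFKFB4 (chr3:48556754-48557053, minus strand): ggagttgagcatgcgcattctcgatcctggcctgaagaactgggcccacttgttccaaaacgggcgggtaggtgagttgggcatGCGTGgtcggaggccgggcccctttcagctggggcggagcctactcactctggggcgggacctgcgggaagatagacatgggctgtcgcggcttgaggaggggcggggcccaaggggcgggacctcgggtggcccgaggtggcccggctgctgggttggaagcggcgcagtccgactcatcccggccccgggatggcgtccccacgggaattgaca
PDK1 (chr2:172555123-172555422, plus strand): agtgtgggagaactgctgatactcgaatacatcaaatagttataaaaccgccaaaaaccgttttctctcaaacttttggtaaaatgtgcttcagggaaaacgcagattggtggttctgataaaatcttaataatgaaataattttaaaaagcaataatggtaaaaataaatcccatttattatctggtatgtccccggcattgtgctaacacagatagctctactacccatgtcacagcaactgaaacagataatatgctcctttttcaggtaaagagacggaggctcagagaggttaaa
PDK1 (chr2:172555840-172556139, plus strand): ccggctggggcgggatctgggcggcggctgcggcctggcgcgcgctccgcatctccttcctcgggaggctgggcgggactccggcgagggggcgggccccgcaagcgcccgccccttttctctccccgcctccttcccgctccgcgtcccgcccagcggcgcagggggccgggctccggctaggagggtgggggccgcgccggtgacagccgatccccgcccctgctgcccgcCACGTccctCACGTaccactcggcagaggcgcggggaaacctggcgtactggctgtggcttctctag
PDK4 (chr7:95596467-95596766, minus strand): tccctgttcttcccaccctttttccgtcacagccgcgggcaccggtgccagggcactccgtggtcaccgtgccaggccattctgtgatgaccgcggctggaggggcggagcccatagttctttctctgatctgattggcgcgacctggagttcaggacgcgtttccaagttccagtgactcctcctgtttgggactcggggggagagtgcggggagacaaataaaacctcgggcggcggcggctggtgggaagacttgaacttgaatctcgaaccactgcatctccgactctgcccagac
PDK2 (chr17:50095101-50095400, plus strand): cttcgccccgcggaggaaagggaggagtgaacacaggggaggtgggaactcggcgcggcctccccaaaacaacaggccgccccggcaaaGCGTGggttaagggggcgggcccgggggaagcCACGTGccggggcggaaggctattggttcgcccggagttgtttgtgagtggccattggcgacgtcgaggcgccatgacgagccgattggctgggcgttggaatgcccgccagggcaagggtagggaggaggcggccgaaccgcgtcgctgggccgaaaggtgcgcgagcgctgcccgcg
A match was present in 7 of the 13 member windows (53.8%), against 48.4% of the 35116 windows of all genes. The stricter string ACGTG, on either strand, was in 5 of 13 member windows and in 21.4% of all windows. No match lay in the first window of PDK1, in the other windows of PDK2, in the window of PDK4 or in those of PFKFB1. The windows of PDK3 and PDP2 held a match. PDK2, which fell, held the strings and PDK4, which rose, did not, and a match describes letters only.

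**Figure D1:**
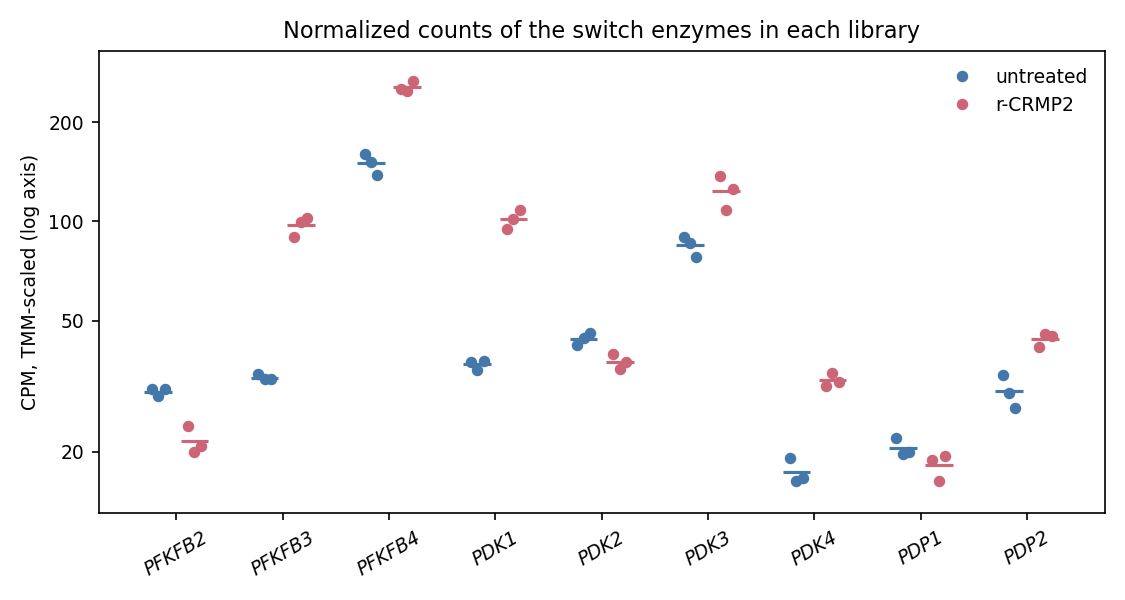
TMM-scaled CPM (log axis) of the 9 tested genes in each library, with 1 point per library and a bar at the group mean (n = 3 per group). The groups do not overlap for any of the genes, and PFKFB3 and PDK1 are the most widely separated.

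Among the PFKFB genes, the same treatment went with rises of PFKFB3 and PFKFB4 and a fall of PFKFB2. PFKFB3, the isoenzyme with a strong excess of kinase over phosphatase activity, lies on chromosome 10 at 6186841 to 6277508, plus strand, in the deposited coordinates, for which the processing notes name hg19. It had 34.4, 33.1 and 33.1 CPM in the untreated libraries and 89.5, 99.9 and 103 CPM in the treated libraries. The untreated values were nearly equal, and the lowest treated library stood far above all of them. Treated over untreated, PFKFB3 rose by a log2 fold change of 1.54 (SE 0.06, edgeR adjusted p = 2.01e-12), larger than that of 98.0% of the genes tested. Genes overlapping PFKFB3, among them 1 antisense gene and the microRNA gene MIR3155A, had at most 7 counts in any library, against 813 to 2360 for PFKFB3.

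PFKFB4, first known from testis and active in many tumors, was the PFKFB gene with the highest level per length in both groups. It lies on chromosome 3 at 48555117 to 48598613, minus strand. The untreated libraries had 160.1, 151 and 139 CPM and the treated libraries 252, 249 and 268 CPM. Replicates of each group differed far less than the groups did. PFKFB4 rose by 0.77 on the log2 scale (SE 0.07, edgeR adjusted p = 9.02e-09), a 1.71-fold rise.

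PFKFB2, the heart isoenzyme and a target of AKT and protein kinase A, lies on chromosome 1 at 207226620 to 207254368, plus strand. It had 30.9, 29.5 and 31.0 CPM in untreated and 23.9, 19.9 and 20.8 CPM in treated libraries. Every treated library was below every untreated library. PFKFB2 fell, with a log2 fold change of -0.50 (SE 0.08, edgeR adjusted p = 5.02e-05). PFKFB1, the liver and muscle isoenzyme, lies on chromosome X at 54959567 to 55024967, minus strand. It had 2, 3 and 10 counts in the untreated and 6, 3 and 0 counts in the treated libraries. These counts are too few to show a difference, and a count of 0 still allows up to 3.

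Of the kinases that switch off PDH, 3 rose and PDK2 fell. PDK1 lies on chromosome 2 at 173420101 to 173490351, plus strand. Untreated libraries held 37.4, 35.5 and 37.8 CPM and treated libraries 94.9, 102 and 109 CPM of PDK1. All treated values were more than 2 times the highest untreated value. On the log2 scale PDK1 rose by 1.46 (SE 0.06, edgeR adjusted p = 3.33e-12), above 97.7% of the genes tested. An antisense gene, ENSG00000225205.1, overlaps PDK1 by 1224 bases at its start, and the library kit named in the methods does not mark strand. That gene had 90, 66 and 63 counts in untreated and 115, 131 and 119 counts in treated libraries, in all 6.16% of the counts of PDK1, and its part in the rise was not tested.

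PDK4, the isoenzyme induced by fasting in muscle and liver, lies on chromosome 7 at 95212809 to 95225925, minus strand. It had 19.1, 16.3 and 16.6 CPM in untreated and 31.6, 34.7 and 32.5 CPM in treated libraries. The groups were well apart and the treated values close together. The log2 fold change of 0.92 (SE 0.08, edgeR adjusted p = 3.14e-08) lay just under the threshold of 1.

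PDK3 lies on chromosome X at 24483344 to 24568583, plus strand, and is the PDK least sensitive to inhibition by pyruvate. It had 89.9, 85.9 and 78.2 CPM in untreated and 138, 108 and 125 CPM in treated libraries. The treated replicates of PDK3 spread more widely than those of any other kinase, but none reached down to the untreated values. PDK3 rose by 0.55 in log2 units (SE 0.12, edgeR adjusted p = 9.33e-06). PDK2, the most widely expressed kinase of the family, lies on chromosome 17 at 48172101 to 48188733, plus strand. It had 42.1, 44.2 and 46.0 CPM in untreated and 39.6, 35.5 and 37.4 CPM in treated libraries. The gap between the lowest untreated and the highest treated library was small, and the log2 fold change was -0.23 (SE 0.06, edgeR adjusted p = 0.0104). Without untreated replicate 3, the highest untreated library, it was -0.20 and no longer passed (edgeR adjusted p = 0.059). The gene SAMD14 and an antisense gene overlap PDK2, with at most 18 counts in a library.

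Of the phosphatases that reactivate PDH, PDP2 rose and PDP1 did not pass. PDP2, on chromosome 16 at 66914264 to 66925004, plus strand, had 34.3, 30.2 and 27.0 CPM in untreated and 41.5, 45.5 and 44.8 CPM in treated libraries. The treated libraries were all higher, and the untreated ones were the more scattered. PDP2 rose by 0.53 in log2 units (SE 0.11, edgeR adjusted p = 2.96e-05). PDP1, the calcium-stimulated phosphatase, had 22.0, 19.6 and 19.9 CPM in untreated and 18.8, 16.2 and 19.4 CPM in treated libraries. The groups of PDP1 nearly touched, at 19.6 and 19.4 CPM. Its log2 fold change of -0.18 (SE 0.09, edgeR adjusted p = 0.115) did not pass.

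**Figure D2:**
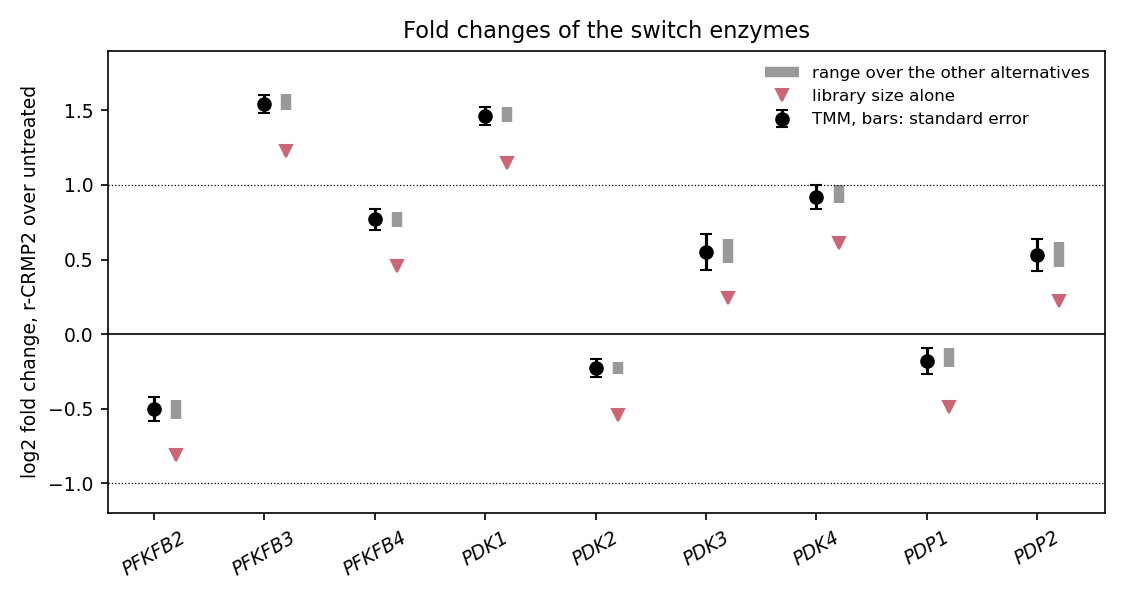
Log2 fold change (r-CRMP2 over untreated) of the 9 tested genes with TMM scaling (black, bars are standard errors), with library size alone (red triangles) and the range over the other alternatives (gray). Dotted lines mark the log2 fold change threshold of 1 in each direction, and library size alone lowers every gene by about the same amount with no change of sign.

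When libraries were scaled by their totals only, each member moved down with the median of all genes. The log2 fold changes then were 1.23 for PFKFB3, 0.46 for PFKFB4, 1.15 for PDK1, 0.61 for PDK4, 0.24 for PDK3 and 0.22 for PDP2, and these 6 genes still passed as higher. Among them PDP2 had the largest edgeR adjusted p, 0.0321. PFKFB2 had -0.81 and PDK2 -0.54, and PDP1 (-0.49, edgeR adjusted p = 0.000339) passed as lower. Relative to the median of all genes, the values were the same under both scalings to within 0.01, for instance 1.56 for PFKFB3 and 0.55 for PDP2. Other scaling factors move all genes by nearly the same amount. This sameness therefore follows from the calculation and does not test the calls. The rises of PFKFB3 and PDK1 were the only member changes that also passed edgeR's test against a fold change of 2.

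Levels of different genes can be compared only per length, for which the deposited TPM values were used. TPM divides counts by gene length, is relative to each library's own total and carries no TMM scaling. In untreated cells, PFKFB4 stood highest at 90.8 ± 5.72 TPM (SD, n = 3), followed by PDK2 at 31.7 ± 1.77 TPM (SD, n = 3). PFKFB3, PDK3 and PDK1 came next, at 16.3, 15.7 and 15.4 TPM, and PDK3 overlapped both of the others over the replicates. PDK4, PDP1 and PDP2 also overlapped in sequence, with means of 11.4, 11.2 and 10.1 TPM. PFKFB2 at 8.11 ± 0.166 TPM (SD, n = 3) lay below PDP2 in every library, and PFKFB1 was lowest.

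In treated cells the order changed behind PFKFB4, which had 124 ± 8.43 TPM (SD, n = 3). PFKFB3 at 37.8 ± 2.20 TPM and PDK1 at 33.9 ± 2.31 TPM (SD, n = 3 each) overlapped each other and lay above PDK2 at 21.5 ± 2.13 TPM (SD, n = 3). PDK2 overlapped PDK3 (15.2 to 21.2 TPM), and PDK4 (17.2 to 17.3 TPM) fell inside the range of PDK3. PDP2 was at 11.6, PDP1 at 7.94 and PFKFB2 at 4.59 TPM, without overlap between these neighbors. On this scale PDK3 did not separate the groups, with 14.6 to 16.4 TPM in untreated libraries.

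The isoenzyme make-up of each family is a measure that does not depend on how libraries are scaled, and most shares did not overlap between the groups. PFKFB3 supplied 13.7%, 13.9% and 14.8% of the summed PFKFB TPM in untreated libraries and 21.5%, 23.7% and 23.0% in treated libraries. The difference was 8.57 percentage points (SE 0.743). Mean shares in untreated and treated libraries were 78.6% and 74.4% for PFKFB4 and 7.04% and 2.76% for PFKFB2. PFKFB4 made up most of the PFKFB pool in both groups.

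In the PDK family the leading isoenzyme by TPM differed between the groups. This change of leader rests on the deposited gene lengths. By counts PDK3 led in every library of both groups, at 2107 to 2501 in untreated and 2136 to 2942 in treated libraries. PDK2 supplied 40.2%, 43.4% and 44.5% of the PDK pool in untreated libraries and 24.8%, 23.0% and 23.0% in treated libraries. PDK1 supplied 20.8%, 20.3% and 21.3% in untreated libraries and 34.7%, 38.3% and 38.8% in treated libraries. Treated minus untreated, the mean share differed by -19.1 points for PDK2 (SE 1.41), 16.5 points for PDK1 (SE 1.34) and 3.65 points for PDK4 (SE 1.05). In contrast, the shares of PDK3 overlapped, with means of 21.2% and 20.1%. PDP1 supplied 52.8% of the PDP pool in untreated and 40.6% in treated libraries, and PDP2 the rest.

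For 7 of the 9 shares tested, all but those of PFKFB1 and PDK3, the groups did not overlap. An exact two-sided permutation test then gave p = 0.1 (adjusted p = 0.129 over 9 shares), the smallest p that 3 against 3 libraries allow, so no share could pass. The shares rest on the deposited gene lengths, for instance 3392 bases for PDK2 and 13136 for PDK3. With CPM in place of TPM, the difference in share was 14.3 points for PDK1, -11.5 points for PDK2 and 10.3 points for PFKFB3. For PDK2 this was a move of more than 1.5 times, from -19.1 points with TPM. Other differences that moved by more than 1.5 times were those of PFKFB2 (to -8.49 points) and PFKFB4 (to -1.71 points). The same held for PDK4 (to 1.7 points), PDK3 (to -4.53 points) and PFKFB1 (to -0.0503 points). The groups then overlapped for PFKFB4, which left 6 of the 9 shares without overlap. How often such shares separate in other gene families was not computed, and 64.2% of all single genes did not overlap between the groups.

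**Figure D3:**
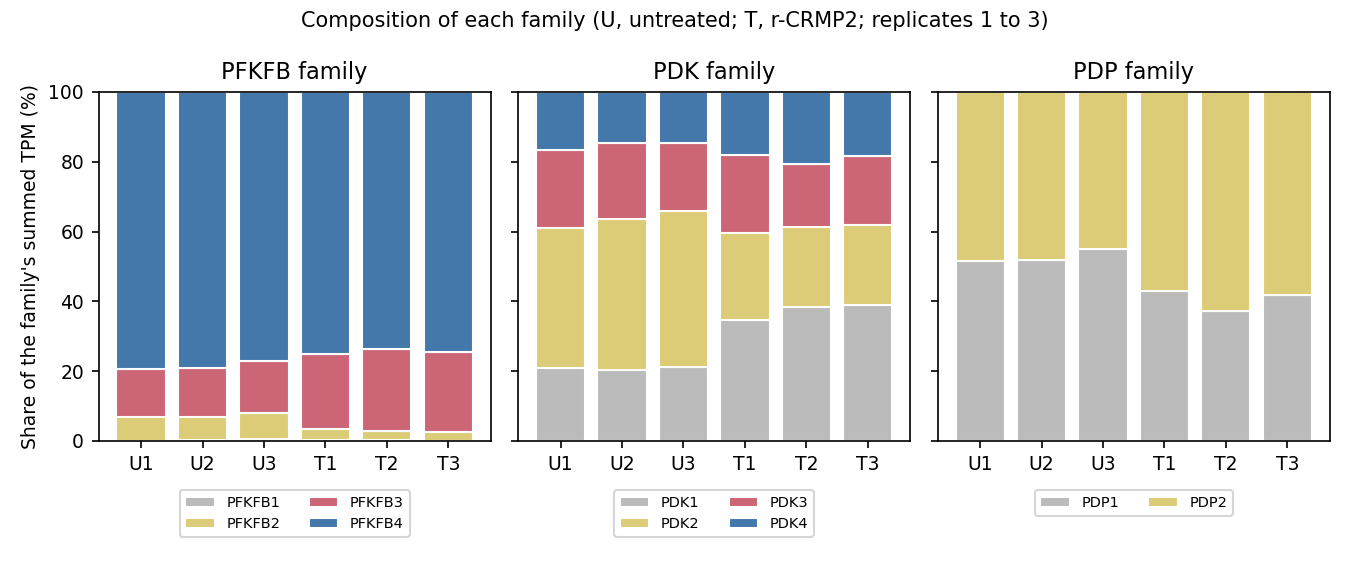
Share (%) of each gene in the summed TPM of its family, for the PFKFB, PDK and PDP families, with 1 stacked bar per library (U1 to U3 untreated, T1 to T3 r-CRMP2). The PDK1 segment is wider and the PDK2 segment narrower in all 3 treated libraries, the PFKFB1 segment is too thin to see, and PFKFB4 holds over 70% of the PFKFB pool throughout.

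The summed level of the PDK genes was 73.9, 74.2 and 74.6 TPM in untreated and 95.1, 84.1 and 94.1 TPM in treated libraries. The sum of the PDP genes was 23.0, 21.0 and 19.9 TPM in untreated and 19.9, 18.1 and 20.5 TPM in treated libraries. PDK sums were higher in all treated libraries, and PDP sums overlapped. The ratio of kinase to phosphatase TPM was 3.21, 3.53 and 3.75 in untreated and 4.77, 4.64 and 4.60 in treated libraries. On the log2 scale the ratio was higher by 0.42 (SE 0.0666) in treated cells, in 3 of 3 libraries against all untreated ones (exact two-sided permutation p = 0.1, the smallest possible). PFKFB sums were 120.0, 117 and 109 TPM in untreated and 169, 155 and 175 TPM in treated libraries.

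Members of 1 family were also set against each other. The log2 ratio of 1 member's counts to another's was compared between groups for all 13 pairs within the families. In 10 pairs, all those without PFKFB1, the ratio did not overlap between the groups. The exact two-sided permutation test then gave p = 0.1 (adjusted p = 0.13 over 13 pairs), again the smallest possible. How often the ratios of other gene pairs separate was not computed, and 64.2% of all single genes did not overlap between the groups. The log2 ratio of PFKFB2 to PFKFB3 differed by -2.04 (SE 0.14) between treated and untreated cells, and that of PFKFB3 to PFKFB4 by 0.76 (SE 0.07). For PDK1 the difference was 1.70 (SE 0.10) against PDK2, 0.92 (SE 0.15) against PDK3 and 0.53 (SE 0.09) against PDK4. For PDP1 to PDP2 it was -0.71 (SE 0.12). The pairs with PFKFB1 rest on its 0 to 10 counts and show nothing at this depth.

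Genes that act beside these enzymes were read from lists chosen with earlier results of these data known. There were 6 such lists with 46 genes, of which 43 were tested, and 17 were higher and 10 lower, with 28.2% and 30.1% of all genes as background. With library size alone 9 were higher and 24 lower, against 13.4% and 52.1% of all genes. At the phosphofructokinase step, the point at which the PFKFB product acts, PFKL, PFKM and PFKP rose and TIGAR fell, but with library size alone PFKL (0.07) did not pass and PFKM turned from 0.22 to -0.09. TIGAR, which removes fructose-2,6-bisphosphate, had 11.8, 11.8 and 13.8 CPM in untreated and 4.17, 3.64 and 3.70 CPM in treated libraries. All 3 treated libraries were far below the untreated ones. TIGAR had a log2 fold change of -1.70 (SE 0.10, edgeR adjusted p = 3.64e-09). PFKP, the platelet isoform, had means of 526 ± 34.3 and 766 ± 29.7 CPM (SD, 3 libraries each) and rose by 0.54 in log2 units. The median of the 4 tested genes was 0.30, and FBP1 and FBP2, the enzymes of the reverse step, were not tested for low counts.

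The next list held the PDH complex, the target of the kinases and phosphatases, and PDPR, the regulatory subunit of the phosphatase. Of its 6 tested genes 3 were lower, against 30.1% of all genes, and none was higher, against 28.2%. Its median log2 fold change was -0.25. In the complex without PDPR, PDHB and DLAT fell, and PDHA1, DLD and PDHX did not pass. PDHB, the beta subunit of the first enzyme, had 36.1, 33.5 and 38.8 CPM in untreated and 22.6, 25.3 and 20.4 CPM in treated libraries. No treated library came near the lowest untreated one. The log2 fold change of PDHB was -0.67 (SE 0.11, edgeR adjusted p = 2.73e-06). DLAT, the second enzyme, had a log2 fold change of -0.37 (SE 0.08, edgeR adjusted p = 0.000404). PDPR was at -0.35 and fell. PDHA1, the alpha subunit that carries the phosphorylation sites, had -0.09 (edgeR adjusted p = 0.215), DLD -0.15 and PDHX 0.14, with PDHX turning to -0.17 with library size alone. With library size alone 5 of the 6 genes fell, against 52.1% of all genes.

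Of the other genes that handle pyruvate, 4 of 7 rose and 1 fell, against 28.2% and 30.1% of all genes. Their median log2 fold change was 0.17. LDHA, which converts pyruvate to lactate, had means of 1931 ± 167 and 2929 ± 205 CPM (SD, 3 libraries each) and rose by 0.60 in log2 units (edgeR adjusted p = 1.06e-06). PC, the pyruvate carboxylase that feeds the citric acid cycle by another route, had means of 173 ± 3.02 and 119 ± 2.68 CPM (SD, 3 libraries each). PC fell, at a log2 fold change of -0.54 (SE 0.02, edgeR adjusted p = 2.74e-07). PKM (0.50), LDHB (0.17) and MPC2 (0.24) were the other genes that rose, and with library size alone LDHB and MPC2 turned to -0.14 and -0.07. The number of higher genes was 2 without untreated replicate 2, and that of lower genes 2 without r-CRMP2 replicate 2.

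The list of transcription regulators tied to PFKFB or PDK genes had 7 of 13 members higher and 1 lower. Over all genes 28.2% were higher and 30.1% lower, and the median log2 fold change of the list was 0.31. EPAS1, the gene of HIF-2α, had 172, 155 and 141 CPM in untreated and 321, 326 and 345 CPM in treated libraries. The log2 fold change of EPAS1 was 1.08 (SE 0.09, edgeR adjusted p = 2.68e-10). FOXO3, a forkhead factor known to act on PDK4, had 40.2, 40.3 and 38.6 CPM in untreated and 80.8, 86.2 and 94.4 CPM in treated libraries. FOXO3 rose by 1.13 in log2 units (SE 0.07, edgeR adjusted p = 1.31e-10). For both genes every treated library was far above every untreated one, and the untreated EPAS1 libraries spread from 141 to 172 CPM. HIF1A, ARNT, MYC, FOXO1 and NR3C1 also rose, with log2 fold changes from 0.31 to 0.69, of which ARNT (0.996), FOXO1 (0.156) and NR3C1 (0.164) lost their calls with library size alone (edgeR adjusted p in parentheses). PPARA, a nuclear receptor known to induce PDK4, was the gene that fell, at -0.79, and was named after its value was seen. With library size alone, 4 of these regulators were higher and 6 lower, against 13.4% and 52.1% of all genes. EPAS1 and FOXO3 stayed higher at 0.77 and 0.82.

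**Figure D4:**
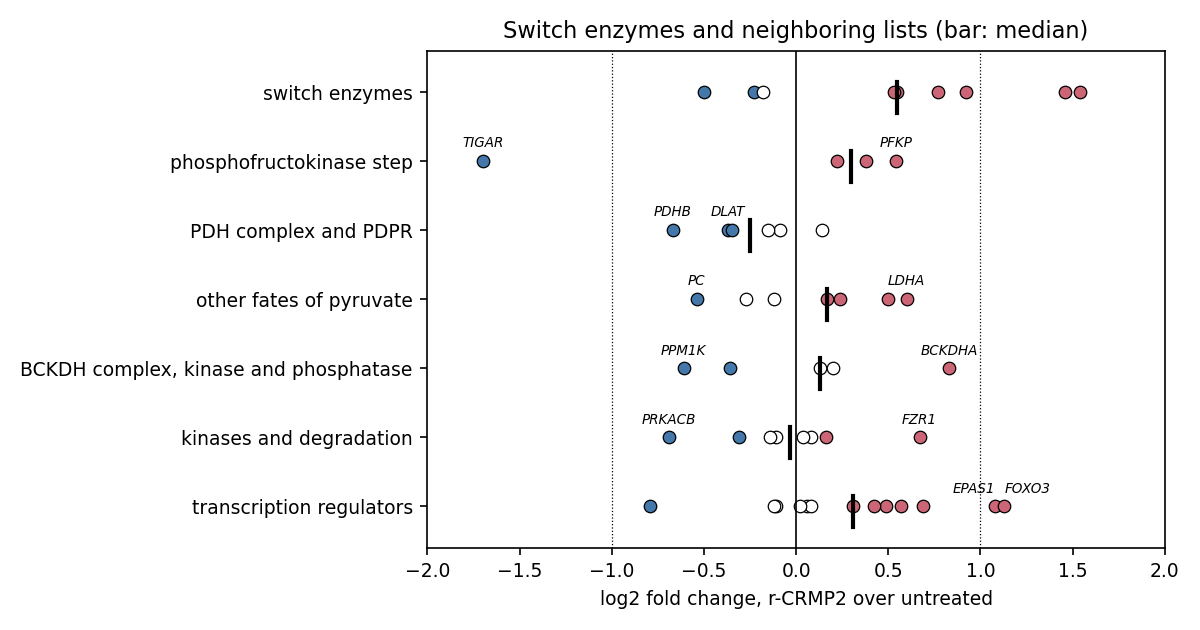
Log2 fold change (r-CRMP2 over untreated, TMM scaling) of each tested gene of the switch enzymes and of the 6 neighboring lists, with 1 point per gene. Red points were higher and blue points lower at an adjusted p under 0.05, white points did not pass, black bars are list medians, and TIGAR is the farthest left at -1.70.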

How the data were processed

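Polyadenylated RNA of 6 A2780 cultures was sequenced by the authors with 150-base paired-end reads. The submitters' processing notes name FastQC, HISAT2, DESeq2 and hg19. The counting tool, annotation and strand setting are not given in the sources used here. The authors deposited, for each library, raw read counts per gene (unit: counts) and TPM values. The deposited TPM followed from the counts and gene lengths within 4.72e-06.

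Groups were tested on the counts by the quasi-likelihood method of edgeR 4.0.16 (R 4.3.3, limma 3.58.1). TMM scaling and edgeR's own filter on low counts came first, with Benjamini-Hochberg adjustment over the 16222 genes tested. Thresholds were an adjusted p-value of 0.05 and, where stated, a log2 fold change of 1. CPM are TMM-scaled. Standard errors come from the replicate spread of log2 CPM (prior count 2) or, for shares and ratios, of the values themselves. Shares and ratios were compared by exact two-sided permutation tests, and pair ratios used a pseudocount of 0.5. The edgeR step was tested on simulated counts. No 2 libraries were duplicates (chi-square per degree of freedom 3.62 to 10.3). The labels do not say how the cultures were separated, so p-values measure the spread between these samples, which may be technical. Depth was 21888530 to 25711353 counts per library.

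Alternatives were DESeq2 (1.42.0), RLE factors, a replicate block, a minimum of 10 counts per sample or no filter, library size alone, a test against a fold change of 2, CPM in place of TPM, pseudocounts of 0 and 2, and leaving out each library. Named were all 10 members and, of each pathway list, the genes past both thresholds or else those with the largest absolute log2 fold changes until 2 were named. Other list genes were named after their values were seen. The members and lists were chosen with earlier results of these data known. Promoter windows are RefSeq's on GRCh38.p14, a different build from the deposited coordinates, and the sets of coordinates were not combined.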

Additional observations from a re-analysis of the deposited data

How the results depend on the processing

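The 6 higher and 2 lower members stayed within 1.5 times of these counts in all alternatives except 1: leaving out 1 library each gave 1 to 2 lower members, 1 without untreated replicate 3. Over the 46 genes of the pathway lists, library size alone gave 9 higher and 24 lower genes in place of 17 and 10, and 0 and 3 past both thresholds in place of 2 and 1. No log2 fold change of the 9 tested members, or of the 12 list genes named by the rule on size, changed sign in the 12 alternatives run for each. Among the other pathway genes named, PFKM, LDHB, MPC2, PDHX, AKT2, BCKDK and ARNT (to -0.00) changed sign with library size alone. PDK2 lost its call without untreated replicate 3 (-0.20), and PDP1 passed with library size alone (-0.49). The ratio of PFKFB1 to PFKFB2, main value -0.19, was 0.29 with a pseudocount of 2 and ranged from -0.87 to 0.93 when 1 library was left out. With a pseudocount of 0 the pairs with PFKFB1 gave no value. The replicate numbers did not pair the samples (correlations of -0.021, 0.0038 and -0.025 across genes for same-numbered libraries, 0 libraries best with their own number). With the replicate block 6 members were higher and 2 lower, PFKFB3 had 1.54 and PDK1 1.46, the PDK to PDP log2 ratio differed by 0.42, and 15 and 10 list genes were called. Paired by number, an exact sign-flip test of 3 pairs cannot go below p = 0.25. For all genes, 4574 higher and 4875 lower became 2171 and 8449 with library size alone. For all genes past both thresholds, 831 and 1437 became 489 and 2553 with library size alone and 369 and 467 when tested against 2-fold. A minimum of 10 counts per sample left 946 lower. Depth limits only PFKFB1 among the members.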

Other observations

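The branched-chain ketoacid dehydrogenase complex is a relative of PDH with its own kinase (BCKDK) and phosphatase (PPM1K). Of its 5 listed genes, BCKDHA rose, DBT and PPM1K fell, and the median log2 fold change was 0.13. Over all genes 28.2% were higher and 30.1% lower. The groups of DBT overlapped, and 1 gene in place of 2 was lower without untreated replicate 2 or without r-CRMP2 replicate 2. With RLE factors or without r-CRMP2 replicate 1, 2 genes were higher. BCKDHA, the alpha subunit of the first enzyme, had 106, 109 and 91.2 CPM in untreated and 176, 187 and 181 CPM in treated libraries. BCKDHA rose by 0.83 in log2 units (SE 0.08, edgeR adjusted p = 8.01e-09). PPM1K had 10.7, 10.5 and 9.98 CPM in untreated and 7.44, 6.77 and 6.23 CPM in treated libraries, a log2 fold change of -0.61 (edgeR adjusted p = 0.000303). The kinase BCKDK, at 105 ± 2.44 and 115 ± 6.95 CPM (SD, 3 libraries each), had a log2 fold change of 0.13 and did not pass (edgeR adjusted p = 0.0784), and with library size alone it was at -0.18 and passed as lower.

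Of 8 genes for kinases that phosphorylate PFKFB proteins, or for their degradation, 2 rose and 2 fell, with a median log2 fold change of -0.04. Over all genes 28.2% were higher and 30.1% lower. FZR1, an activator of the ubiquitin ligase that marks PFKFB3 for degradation, had 89.1, 85.1 and 80.3 CPM in untreated and 125, 138 and 141 CPM in treated libraries. FZR1 rose by 0.67 in log2 units (SE 0.07, edgeR adjusted p = 8.19e-08). PRKACB, a catalytic subunit of protein kinase A, had means of 16.7 ± 1.61 CPM in untreated and 10.3 ± 0.575 CPM in treated libraries (SD, 3 libraries each). PRKACB fell, with a log2 fold change of -0.69 (SE 0.09, edgeR adjusted p = 1.69e-05). AKT2 (0.16) also rose and PRKAA2 (-0.31) also fell, but the groups of PRKAA2 overlapped. With library size alone AKT2 turned to -0.15 and the list had 1 higher and 6 lower genes, against 13.4% and 52.1% of all genes. The number of higher genes was also 1 with the replicate block, with no low-count filter, and without untreated replicate 1, untreated replicate 2 or r-CRMP2 replicate 3. That of lower genes was 1 without untreated replicate 1 or r-CRMP2 replicate 2.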
